A study of Mus musculus with 9 samples.

Results

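Ltf, Ngp, Camp, Lcn2, Chil3, Olfm4, Hp, Lyz1, Lyz2 and Pglyrp1 encode proteins that neutrophils store in their granules or use against microbes. The 10 genes were taken by their symbols from the 22064 genes listed, of which 18325 had values, and all 10 were among the 14108 genes tested. Their transcripts were measured by bulk RNA-seq in 9 libraries of neutrophils sorted from the lungs of female BALB/c mice, 3 libraries in each of 3 groups. The first group was CD45+ Ly6Ghigh neutrophils from macrometastatic lung, taken at the MACRO stage after 4T1-LM3 cells had been injected into the mammary fat pad. 4T1-LM3 is a line derived from 4T1 mouse mammary carcinoma by repeated passage through the lung. The second group was CD45+ Ly6Glow neutrophils from such lungs, and the third was CD45+ Ly6Ghigh neutrophils from normal lung of mice for which the labels give no tumor. No group carried a genetic change or a drug treatment according to the labels. The study's methods give an age at purchase, which is that of young adult mice, and place the macrometastatic stage in the fourth week from injection or later. The exact age at sampling, and whether mice were pooled, are not given in the sources used here, so that p-values measure the spread between these libraries, which may be technical. The descriptions of the normal lung libraries name the Ly6Ghigh group alone, and their assignment rests on title and treatment.

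Neutrophils fill their granules in waves while they mature in the bone marrow. Primary granules, with proteases and myeloperoxidase, are made first, secondary granules next and tertiary granules last, and the genes of each wave are largely silent again in the mature cell. Transcription of secondary granule genes depends on the factor C/EBPε, encoded by Cebpe. Lactoferrin (Ltf) binds iron, the cathelicidin precursor (Camp) yields an antimicrobial peptide, Ngp is a cystatin-related granule protein and lipocalin 2 (Lcn2) captures bacterial siderophores. Olfactomedin 4 (Olfm4) marks a subset of neutrophils, haptoglobin (Hp) binds hemoglobin and Pglyrp1 binds peptidoglycan. Lysozymes (Lyz1, Lyz2) cut the bacterial cell wall and the chitinase-like protein Ym1 is encoded by Chil3, and these genes are also transcribed in macrophages, with Lyz1 known best from Paneth cells.

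Levels between libraries are given as CPM, estimated counts scaled to one common library size with TMM factors, and levels between genes as FPKM, which is also scaled for transcript length. Library totals ran from 15267177 to 17841807 estimated counts. The transcript of Ly6g, whose protein defined the gates, measured 379.8, 361 and 380.1 CPM in macrometastatic Ly6Ghigh, 385, 403 and 394 CPM in Ly6Glow and 120.2, 120.2 and 118 CPM in normal lung neutrophils, so that it did not pass the test between the macrometastatic gates (log2 fold change 0.08, adjusted p = 0.058 by edgeR's quasi-likelihood test). The 10 neutrophil markers (S100a8, S100a9, Csf3r, Cxcr2, Retnlg, Mmp9, Ly6g, Itgam, Clec4d and Il1r2) summed to 70281 to 72127 CPM in macrometastatic Ly6Ghigh, 75888 to 77721 in Ly6Glow and 19265 to 19513 in normal lung libraries. Markers of lung epithelial cells and of endothelial cells and fibroblasts were highest in normal lung. There 14 lung epithelial genes summed to 1435 to 1565 CPM against 129 to 141 in the macrometastatic libraries. The 8 endothelial and fibroblast genes summed to 1126 to 1221 CPM against 160 to 204. Eosinophil markers, and basophil and mast cell markers, were instead highest in macrometastatic Ly6Ghigh, with sums given below. None of these lists was at 0 as a whole in any group; of the epithelial genes, Bpifa1 and Bpifb1 were at 0 in every macrometastatic Ly6Ghigh library. The part of these cells in the comparisons with normal lung was not tested, and in bulk samples fewer cells of a type and less RNA per cell cannot be told apart.

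Promoters are printed for 3 secondary granule genes of chromosome 9 that fell together between the gates and for the lysozyme pair of chromosome 10, to set the sequences of genes with like changes side by side. Ltf, Ngp and Camp lie within 1195390 bases of each other, and Lyz1 and Lyz2 are 5522 bases apart. The lines give the 250 bases before each transcription start from RefSeq (GRCm38.p6, the mm10 build named in the submitters' processing notes), 5′ to 3′ on the strand of the gene, with matches to the C/EBP motif TTNNGNAA, read on both strands, in capitals.
Camp (chr9:109849457-109849706, minus strand): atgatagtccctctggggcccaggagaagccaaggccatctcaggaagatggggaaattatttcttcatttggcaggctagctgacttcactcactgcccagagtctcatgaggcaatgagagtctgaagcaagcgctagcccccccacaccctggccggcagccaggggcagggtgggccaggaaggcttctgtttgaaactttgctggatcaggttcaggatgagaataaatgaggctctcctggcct
Ngp (chr9:110419558-110419807, plus strand): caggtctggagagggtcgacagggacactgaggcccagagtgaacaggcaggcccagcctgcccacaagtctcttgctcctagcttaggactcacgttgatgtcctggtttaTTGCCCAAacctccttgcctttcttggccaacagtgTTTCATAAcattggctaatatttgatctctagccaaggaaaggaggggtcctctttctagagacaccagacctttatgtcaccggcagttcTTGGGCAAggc
Ltf (chr9:111019042-111019291, plus strand): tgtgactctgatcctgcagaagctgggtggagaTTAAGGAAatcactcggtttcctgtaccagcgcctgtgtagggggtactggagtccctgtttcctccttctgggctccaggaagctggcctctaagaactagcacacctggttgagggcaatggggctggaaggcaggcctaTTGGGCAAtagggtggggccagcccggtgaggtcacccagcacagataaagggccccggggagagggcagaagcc
Lyz1 (chr10:117292869-117293118, minus strand): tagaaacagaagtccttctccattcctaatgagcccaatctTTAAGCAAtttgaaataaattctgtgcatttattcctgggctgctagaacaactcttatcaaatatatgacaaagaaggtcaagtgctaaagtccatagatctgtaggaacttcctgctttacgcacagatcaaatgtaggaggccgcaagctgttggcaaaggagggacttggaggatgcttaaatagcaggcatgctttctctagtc
Lyz2 (chr10:117282273-117282522, minus strand): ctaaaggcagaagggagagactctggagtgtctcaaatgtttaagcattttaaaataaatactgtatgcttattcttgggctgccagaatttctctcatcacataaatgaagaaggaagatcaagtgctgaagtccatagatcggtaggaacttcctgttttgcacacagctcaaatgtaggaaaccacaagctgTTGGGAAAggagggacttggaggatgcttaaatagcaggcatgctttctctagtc

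Of the 10 genes, 9 had a promoter in the RefSeq table and Hp did not. The C/EBP motif stood in 7 of these 9 windows, with 3 matches in Ngp, 2 in Ltf, 3 in Chil3 and 1 each in Lcn2, Olfm4, Lyz1 and Lyz2, and in 36.8% of all 32851 promoters in the table. Camp and Pglyrp1 held no match. AGGAAG, a core motif of the granulocyte factor PU.1, stood in 8 of the 9 windows, all but that of Ngp, and in 29.5% of all promoters. The TATA box letters TATAAA stood in 0 of the 9 and in 12.4% of all. No matches of these motifs, each read on both strands, overlapped one another in the 9 windows. A match describes the letters of these windows and was not tested as a site.

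Between the gates of macrometastatic lung, 6 of the 10 genes were lower in Ly6Glow than in Ly6Ghigh neutrophils and 0 were higher. The 6 were Camp, Chil3, Ltf, Ngp, Lyz1 and Lyz2, with log2 fold changes from -2.55 to -1.21 and adjusted p from 1.02e-21 to 5.22e-16 (edgeR quasi-likelihood test, with a call wherever the adjusted p was 0.05 or less and the log2 fold change beyond 0.58 either way). Lcn2, Olfm4, Pglyrp1 and Hp, with log2 fold changes from -0.41 to 0.17, were not called. Of all 14108 genes tested, 15.9% were lower and 9.29% higher by the same rule. The median of the 10 log2 fold changes was -1.21, beside -0.04 over all genes tested. All 10 genes had 3 Ly6Glow libraries that did not overlap the 3 Ly6Ghigh libraries, as did 62.1% of all genes. The count of 0 higher held for edgeR at an unadjusted p of at most 0.05 with the same fold threshold. It also held, at the adjusted p, under DESeq2 and under limma on log2(FPKM + 1). With no fold threshold Hp alone was higher by edgeR, under either p, and Lcn2, Olfm4 and Pglyrp1 were then also lower. Scaling to library totals gave 0 higher and 7 lower, beside 570 higher and 3730 lower of all 14108 genes. Scaling to the 10 neutrophil markers gave 0 higher and 9 lower, beside 1.41% higher and 42.4% lower of all genes. With 3 libraries against 3, an exact permutation test of a single gene cannot go below p = 0.1.

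Against normal lung, 7 of the 10 genes were higher in macrometastatic Ly6Ghigh neutrophils and 0 were lower. These were Ltf, Ngp, Lcn2, Pglyrp1, Camp, Hp and Olfm4, with log2 fold changes from 1.78 to 2.72 and adjusted p from 2.56e-25 to 4.05e-21 by edgeR. Chil3, Lyz1 and Lyz2 were not called. Over all genes tested 26.3% were higher and 36.6% lower, and the median log2 fold change was -0.09, beside 2.16 for the 10 genes. The libraries did not overlap for 9 of the 10 genes and for 85.2% of all genes. The count of 0 lower held at an unadjusted p with the same fold threshold and under DESeq2. By contrast, limma on log2(FPKM + 1) and scaling to library totals each called 1 gene lower, Lyz1. Of all genes, limma called 5162 of 18317 lower, and scaling to library totals 6847 of 14108. Scaling to neutrophil markers departed most, with 6 higher and 3 lower (Chil3, Lyz1 and Lyz2), beside 2.55% higher and 77.2% lower of all genes.

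Against the same normal lung libraries, Ly6Glow neutrophils had 6 of the 10 genes higher and 3 lower. The 6 higher genes were Pglyrp1, Lcn2, Hp, Olfm4, Ngp and Ltf, with log2 fold changes from 0.81 to 2.33, and the lower ones were Chil3, Lyz1 and Lyz2, from -1.80 to -1.24, while Camp was not called. Under scaling to library totals Ltf and Ngp were no longer called and Camp was lower, which gave 4 higher and 4 lower. Of all 14108 genes that scaling called 1330 higher and 7996 lower. Under scaling to the 10 neutrophil markers 0 were higher and 6 lower by edgeR, beside 1.11% higher and 88.1% lower of all genes, so that the share of the 10 genes that was lower lay under that of all genes. Over all genes tested 28.7% were higher and 40.8% lower, with a median of -0.16 beside 0.95 for the 10 genes. The libraries did not overlap for all 10 genes and for 86.8% of all genes. The comparisons share libraries, each group standing in 2 of the 3, so that their values are given side by side and no agreement between them was counted.

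**Figure D1:**
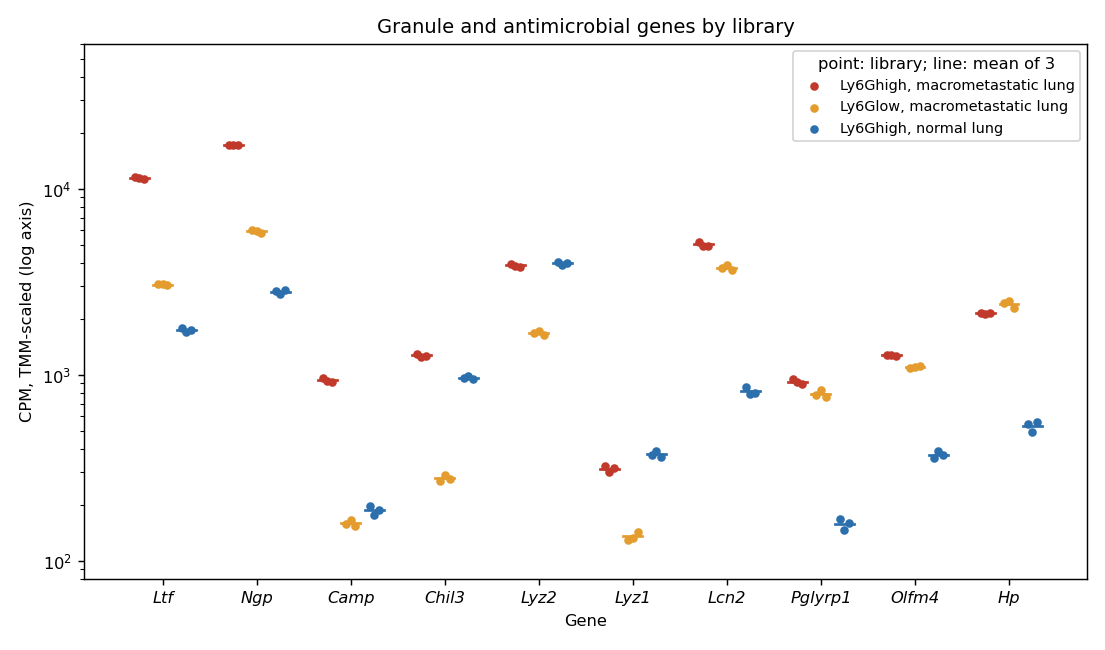
TMM-scaled CPM of the 10 genes on a log axis, with a point for each of the 9 libraries and a line for the mean of the 3 libraries of a group. Ltf, Ngp and Camp are highest in macrometastatic Ly6Ghigh neutrophils. Lcn2, Pglyrp1, Olfm4 and Hp are close in both macrometastatic groups and lower in normal lung. Chil3, Lyz2 and Lyz1 are, like Camp, lowest in Ly6Glow.

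Lactoferrin had the largest log2 fold change of the 10 genes in macrometastatic over normal Ly6Ghigh, and the smallest of the 6 called higher in Ly6Glow over normal lung. Ltf measured 11598, 11399 and 11334 CPM in macrometastatic Ly6Ghigh, 3072, 3063 and 3023 CPM in Ly6Glow and 1788, 1687 and 1749.6 CPM in normal lung libraries. The 3 groups did not overlap and the Ly6Ghigh libraries stood far above both others. The Ly6Glow mean was 26.7% of the macrometastatic Ly6Ghigh mean (log2 fold change -1.91, SE 0.028), which in turn was 6.57 times the normal lung mean (2.72, SE 0.029, adjusted p = 2.56e-25 by edgeR). Ly6Glow neutrophils held 1.75 times the normal lung level (0.81, SE 0.027), a direction that turned to -0.96 when libraries were scaled to neutrophil markers.

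Ngp was the most abundant of the 10 transcripts in both macrometastatic groups. Its level was 17289.5, 17092 and 17207 CPM in macrometastatic Ly6Ghigh, 5979, 5959.9 and 5764 CPM in Ly6Glow and 2813, 2701 and 2851 CPM in normal lung libraries. Again no group overlapped another, and the order was that of Ltf. Ly6Glow neutrophils had 34.3% of the macrometastatic Ly6Ghigh level (-1.54, SE 0.027), and Ly6Ghigh neutrophils of macrometastatic lung had 6.17 times the normal lung level (2.62, SE 0.028). The Ly6Glow level was 2.12 times that of normal lung (1.08, SE 0.027), and -0.69 on the log2 scale with neutrophil marker scaling. Ngp and Ltf together took 2.71% to 2.73% of all estimated counts in macrometastatic Ly6Ghigh, 0.708% to 0.730% in Ly6Glow and 0.58% to 0.601% in normal lung libraries.

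Camp, the cathelicidin gene on which the study's protein work centred, fell furthest between the gates. It was at 955, 928 and 920 CPM in macrometastatic Ly6Ghigh, 157, 167 and 154 CPM in Ly6Glow and 198, 177 and 189 CPM in normal lung libraries. Ly6Glow libraries were the lowest and lay just below those of normal lung, without overlap. The macrometastatic Ly6Ghigh mean of 934 ± 18.5 CPM (SD, n = 3) was 5.86 times the Ly6Glow mean and 4.98 times the normal lung mean (log2 fold changes -2.55, SE 0.041, for Ly6Glow over Ly6Ghigh and 2.31, SE 0.039, for macrometastatic over normal Ly6Ghigh). Camp in Ly6Glow against normal lung gave -0.24 (SE 0.042, adjusted p = 2.00e-05), within the fold threshold under TMM and past it under library totals, at -0.94. Among all genes ranked by FPKM within a library, Camp stood at rank 28 to 29 in macrometastatic Ly6Ghigh, 292 to 307 in Ly6Glow and 110 to 115 in normal lung libraries.

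These 3 genes shared the fall between gates, and the ratios between them differed as well. Within a library the FPKM ratio of Ngp to Camp was 9.10 ± 0.15 (SD, n = 3) in macrometastatic Ly6Ghigh, 18.3 ± 0.57 in Ly6Glow and 7.35 ± 0.28 in normal lung, without overlap between groups. The ratio of Ngp to Ltf was 3.64 ± 0.034, 4.68 ± 0.055 and 3.88 ± 0.069 in the same order. Such a ratio does not depend on how libraries are scaled. By either ratio, Ly6Glow neutrophils kept more Ngp transcript relative to Camp and Ltf than the other groups.

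Lcn2, Pglyrp1, Olfm4 and Hp formed a set with little difference between the gates and higher TMM-scaled levels in both macrometastatic groups than in normal lung. Lcn2 measured 5191, 4925 and 4941 CPM in macrometastatic Ly6Ghigh, 3767, 3903 and 3644 CPM in Ly6Glow and 859, 787 and 799.6 CPM in normal lung libraries. Pglyrp1 was at 954, 914 and 891 CPM, at 782, 826 and 763 CPM and at 167, 146 and 159.8 CPM in the same order of groups. For both genes the gates of macrometastatic lung differed without overlap, and both lay several times above normal lung. The Ly6Glow level was 75.1% of the Ly6Ghigh level for Lcn2 (log2 fold change -0.41, SE 0.034, adjusted p = 1.02e-09) and 86.0% for Pglyrp1 (-0.22, SE 0.041, adjusted p = 1.03e-04), both within the fold threshold under TMM. With library totals the Lcn2 difference was -0.65 and was called, and with neutrophil marker scaling both were called, at -0.91 and -0.71. Macrometastatic Ly6Ghigh neutrophils had 6.16 times the normal lung level of Lcn2 (2.62, SE 0.037) and 5.83 times that of Pglyrp1 (2.54, SE 0.044), and Ly6Glow neutrophils 4.63 times (2.21, SE 0.036) and 5.01 times (2.33, SE 0.044). Neutrophil marker scaling left 1.35 for Lcn2 and 1.27 for Pglyrp1 in the first of these comparisons, both called, and 0.44 and 0.56 in Ly6Glow over normal lung, where neither was called.

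Olfm4 and Hp followed the same outline with smaller differences from normal lung. Olfm4 was at 1279, 1276 and 1258 CPM in macrometastatic Ly6Ghigh, 1092, 1099 and 1116 CPM in Ly6Glow and 356, 389 and 369 CPM in normal lung libraries. Hp was at 2139, 2122 and 2157 CPM, at 2435, 2506 and 2285 CPM and at 542, 494 and 558 CPM. Hp was the one gene of the 10 with higher TMM-scaled libraries in Ly6Glow than in macrometastatic Ly6Ghigh, at a log2 fold change of 0.17 (SE 0.039, adjusted p = 6.94e-04) that was not called and was negative under library totals (-0.07) and neutrophil marker scaling (-0.32). Olfm4 gave -0.21 (SE 0.032, adjusted p = 9.84e-06), likewise within the threshold, and -0.70 under neutrophil marker scaling, which was called. Over normal lung, macrometastatic Ly6Ghigh neutrophils had 3.42 times the Olfm4 level (1.78, SE 0.033) and 4.03 times the Hp level (2.01, SE 0.040). For Ly6Glow neutrophils the ratios to normal lung were 2.97 (1.57, SE 0.033) and 4.54 (2.18, SE 0.041). Under neutrophil marker scaling Hp kept its call between the Ly6Ghigh groups at 0.73, while Olfm4 there (0.50) and Hp in Ly6Glow over normal lung (0.41) were not called and Olfm4 in the latter turned to -0.20.

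Chil3, Lyz1 and Lyz2 had their lowest level in Ly6Glow neutrophils, as Camp did. Unlike Camp, they lay within the fold threshold between the Ly6Ghigh groups under TMM. Chil3 measured 1299, 1253 and 1268 CPM in macrometastatic Ly6Ghigh, 268, 289 and 275 CPM in Ly6Glow and 959.7, 981 and 951 CPM in normal lung libraries. Its Ly6Glow level was 21.8% of the macrometastatic Ly6Ghigh level (-2.20, SE 0.034) and 28.8% of the normal lung level (-1.80, SE 0.033). Between the Ly6Ghigh groups the log2 fold change of 0.40 (SE 0.031) was not called, and it was negative under library totals (-0.06) and under neutrophil marker scaling (-0.88).

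Lyz2, the lysozyme gene of myeloid cells, was at 3962, 3855 and 3801 CPM in macrometastatic Ly6Ghigh, 1685, 1712 and 1642 CPM in Ly6Glow and 4018, 3869 and 4008 CPM in normal lung libraries. Lyz1 was at 322, 300.1 and 315 CPM, at 129.8, 133 and 143 CPM and at 372, 390.2 and 363 CPM. In TMM-scaled CPM the Ly6Ghigh groups overlapped for Lyz2 and lay close for Lyz1, while Ly6Glow libraries were well below both. In FPKM they did not overlap for Lyz2, with a mean in macrometastatic Ly6Ghigh of 0.708 times that in normal lung. Ly6Glow over macrometastatic Ly6Ghigh gave -1.21 for Lyz2 (SE 0.029) and -1.21 for Lyz1 (SE 0.042), or 43.4% and 43.2% of the Ly6Ghigh level. Ly6Glow over normal lung gave -1.24 for Lyz2 (SE 0.029) and -1.47 for Lyz1 (SE 0.042). Macrometastatic over normal Ly6Ghigh gave -0.03 for Lyz2 (SE 0.028, adjusted p = 0.264) and -0.26 for Lyz1 (SE 0.039, adjusted p = 2.00e-06), neither past the fold threshold, and with library totals Lyz1 was called lower at -0.73. With neutrophil marker scaling both were called lower, at -1.31 for Lyz2 and -1.54 for Lyz1.

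Alveolar macrophage markers were by their sum lowest in Ly6Glow and highest in normal lung. The 12 markers summed to 399 to 410.0 CPM in macrometastatic Ly6Ghigh, 131 to 137 CPM in Ly6Glow and 1421 to 1425 CPM in normal lung libraries, with none at 0 in any group. Of the 12, 9 were lower in Ly6Glow than in macrometastatic Ly6Ghigh, 10 lower in macrometastatic Ly6Ghigh than in normal lung and 11 lower in Ly6Glow than in normal lung, and 0 were higher in any of the 3 by edgeR. Ear1, a ribonuclease gene among the 12, had an order like that of Chil3, at -5.26 between gates and, not called, 0.17 in macrometastatic over normal Ly6Ghigh, and Siglecf gave -0.30 in the latter and was not called. Krt79, one of them, was at 6.38 to 8.06 CPM, 0.0762 to 0.376 CPM and 40.5 to 44.3 CPM in the 3 groups. Eosinophil markers summed to 164 to 173 CPM in macrometastatic Ly6Ghigh, 42.3 to 43.9 CPM in Ly6Glow and 59.3 to 62.0 CPM in normal lung, and 6 of 7 were lower in Ly6Glow. The part of either cell type in the Chil3 and lysozyme differences was not tested.

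**Figure D2:**
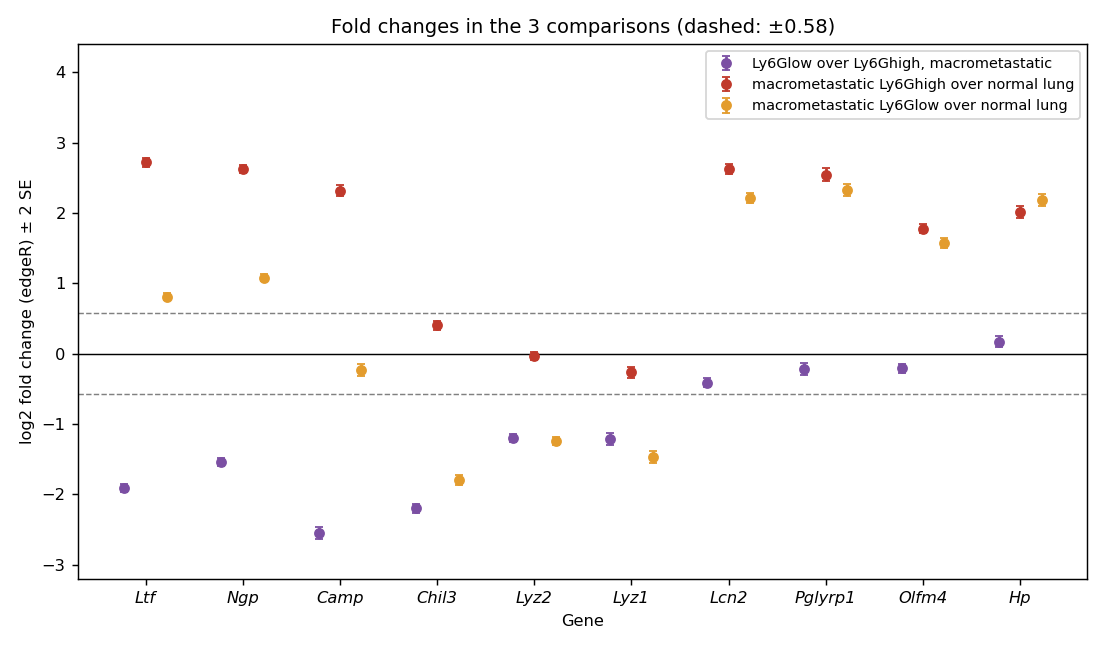
Fitted log2 fold changes of the 10 genes with 2 SE on either side, in 3 comparisons shown by color, with dashed lines at the threshold of 0.58. Ltf, Ngp and Camp are lower in Ly6Glow than in macrometastatic Ly6Ghigh and higher in macrometastatic Ly6Ghigh than in normal lung, while Lcn2, Pglyrp1, Olfm4 and Hp lie within the threshold between gates with the TMM factors drawn. Hp between gates and Chil3 between the Ly6Ghigh groups change sign with the scaling, as do Ltf, Ngp and Olfm4 between Ly6Glow and normal lung.

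The level of one gene against another was read from FPKM. In macrometastatic Ly6Ghigh neutrophils the order was Ngp (14663 ± 60.3 FPKM, SD, n = 3), Lcn2 (5919 ± 159), Ltf (4029 ± 37.0), Lyz2 (3643 ± 67.0), Camp (1611 ± 27.5), Hp (1566 ± 14.3), Pglyrp1 (1380 ± 44.0), Chil3 (810.5 ± 12.9), Olfm4 (446 ± 3.39) and Lyz1 (244 ± 8.46). No neighbours in this order overlapped between libraries. Ngp was the third gene by FPKM of the whole transcriptome in each of these libraries, and Lyz1 stood between ranks 281 and 305.

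The order differed in the other groups. In Ly6Glow neutrophils it ran Ngp, Lcn2, Hp, Lyz2, Pglyrp1, Ltf, Olfm4, Camp, Chil3 and Lyz1, from 4272 ± 83.6 FPKM down to 89.5 ± 4.42 FPKM (SD, n = 3), again without overlap between neighbours. Ltf had dropped behind Hp, Lyz2 and Pglyrp1, and Camp behind Hp, Pglyrp1 and Olfm4. In normal lung neutrophils Lyz2 led at 5146 ± 60.6 FPKM, followed by Ngp, Lcn2, Chil3, Ltf, Hp, Camp, Lyz1, Pglyrp1 and Olfm4, the last at 179.8 ± 9.81 FPKM. Chil3 (847 ± 21.3 FPKM) and Ltf (846 ± 16.3 FPKM) overlapped there, and all other neighbours did not.

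Ratios within a library compare single genes without any scaling between libraries. The FPKM ratio of Ltf to Lyz2 was 1.11 ± 0.010 (SD, n = 3) in macrometastatic Ly6Ghigh, 0.680 ± 0.0099 in Ly6Glow and 0.164 ± 0.0019 in normal lung neutrophils. Ltf to Chil3 gave 4.97 ± 0.052, 6.09 ± 0.23 and 1.00 ± 0.043, so that relative to Chil3, Ltf was lowest in normal lung. Ltf to Lcn2 gave 0.681 ± 0.012, 0.242 ± 0.0069 and 0.638 ± 0.016, with Ly6Glow lowest. Lyz2 to Lyz1 gave 15.0 ± 0.49, 15.0 ± 0.98 and 12.8 ± 0.72, with overlap between the gates of macrometastatic lung and lower values in normal lung.

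The members differed in how alike their profiles were over the 9 libraries. The root mean square distance between centred log2 CPM was smallest for Lcn2 and Pglyrp1 (0.084), then for Lyz1 and Lyz2 (0.13) and for Ltf and Ngp (0.16), while Ltf and Camp were 0.43 apart. Ngp was nearer to Lcn2 (0.534) than to Camp (0.563), so that the sets described above are not separate by this measure. Outside the 10 genes, among 7388 genes with a mean of at least 10 CPM, the closest to Camp were Ube2c, Ccnb2 and Mki67 (0.15, 0.17 and 0.23). Ube2c encodes a ubiquitin-conjugating enzyme of mitosis, Ccnb2 cyclin B2 and Mki67 the antigen Ki-67. Mki67, for one, was at a mean of 316 CPM in macrometastatic Ly6Ghigh, 74.0 CPM in Ly6Glow and 87.4 CPM in normal lung, an order like that of Camp. Closest to Chil3 were Lig1, a DNA ligase, Uhrf1, which binds methylated DNA, and Mcm5, a subunit of the replicative helicase (0.12, 0.15 and 0.19).

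Ltf was closest to Slc17a9, a vesicular nucleotide transporter gene, Arhgap19 and Sept5 (0.16, 0.17 and 0.22), all at a mean below 122 CPM in every group. For Lyz1 the closest were Sun1, Ssrp1 and Nucks1 (0.070, 0.077 and 0.083), and for Lyz2 Ccdc86, Atp5g2 and Itgb7 (0.076, 0.089 and 0.10). These distances describe 9 libraries in 3 groups and carry no test.

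The 3 genes on chromosome 9 fell together between gates, and the genes that lie between them gave calls in both directions, as did all genes tested. Camp (chr9:109847377-109849456, minus strand), Ngp (chr9:110419808-110423012, plus strand) and Ltf (chr9:111019292-111042766, plus strand) are separated by 570.4 kb and 596.3 kb. Of 28 other protein-coding genes in that span 17 were tested, and in Ly6Glow over macrometastatic Ly6Ghigh 3 of these were higher and 2 lower, with a median of 0.03 on the log2 scale. In macrometastatic over normal Ly6Ghigh 6 were higher and 6 lower (median -0.32), and in Ly6Glow over normal lung 6 were higher and 8 lower (median -0.39). Of all genes tested, 9.29% were higher and 15.9% lower between gates. The shares were 26.3% and 36.6% between the Ly6Ghigh groups, and 28.7% and 40.8% in Ly6Glow over normal lung. The largest fall between gates in the span outside the members was that of Cdc25a, which encodes a cell cycle phosphatase, at -2.62. The others of the 10 lie apart, with Lcn2 on chromosome 2 (32384637 to 32387739), Chil3 on chromosome 3 (106147554 to 106167564), Pglyrp1 on chromosome 7 (18884690 to 18890438), Hp on chromosome 8 (109575128 to 109579172) and Olfm4 on chromosome 14 (80000302 to 80023141).

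Lyz2 (chr10:117277541-117282272) and Lyz1 (chr10:117287795-117292868), both on the minus strand, are separated by 5522 bases. No RefSeq protein-coding gene lies wholly between them. Their transcripts are 92.0% identical over 1317 aligned positions, and the promoters printed above are 79.4% identical, or 92 of 100 bases over the stretch next to the start. Of the windows of 50 bases in the Lyz1 transcript 16.1% occur in Lyz2, and of those in Lyz2 15.4% in Lyz1, so that the split of reads between them is uncertain. For Chil3 29.4% of windows occur in other genes (Chil4 and Gm6522), and for Olfm4 3.82% (in Gm6999), while the other 6 genes share none. Chil4 itself was at 1.18 to 1.65 CPM in macrometastatic Ly6Ghigh, 0.0762 to 0.325 CPM in Ly6Glow and 0.228 to 0.496 CPM in normal lung libraries.

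**Figure D3:**
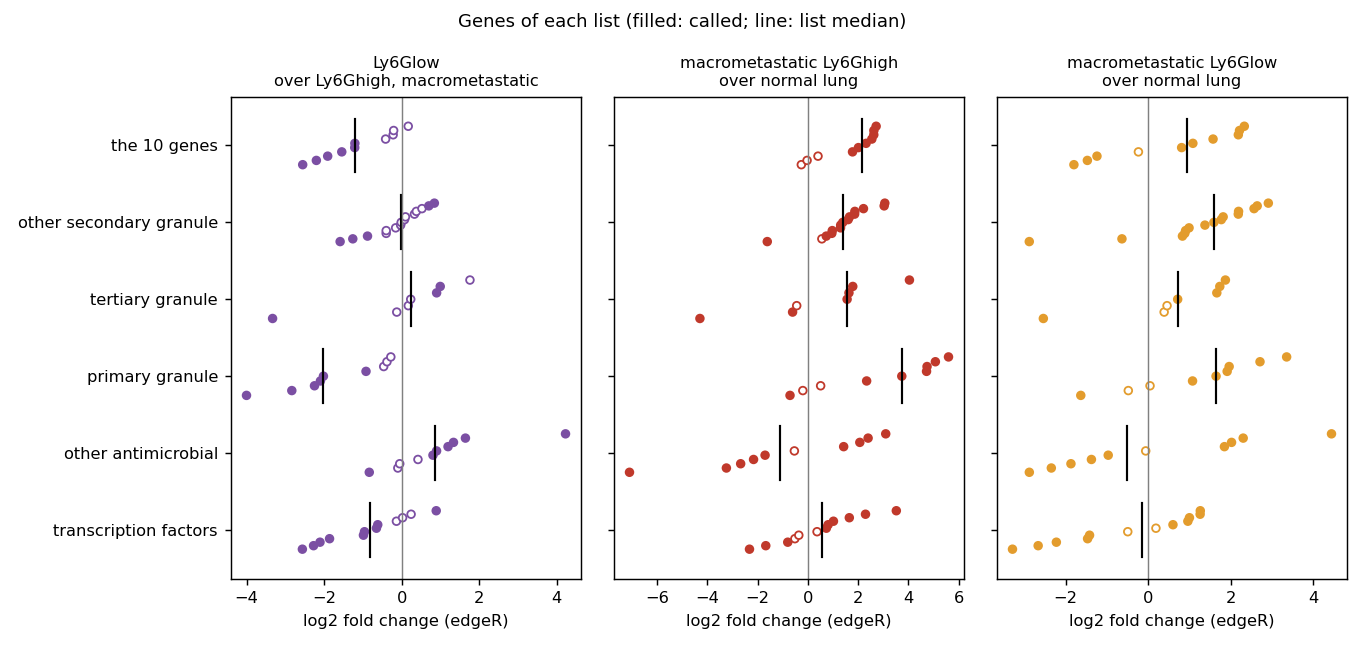
Log2 fold changes of the tested genes of 6 lists in the 3 comparisons, a point a gene, filled where called, with a line at the median of the list. In the comparisons that include macrometastatic Ly6Ghigh, the far points of the other antimicrobial genes are Reg3g. It was at 0 in that group, so that its fitted value there is no measure of size. In Ly6Glow over normal lung the far point of that list is Nos2, at 4.44. Between gates the primary granule genes and the 10 genes have medians of -2.02 and -1.21, and the other secondary granule genes a median of -0.01.

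The other granule genes did not share one pattern between the gates. Of 15 further secondary granule genes, 2 were higher and 3 lower in Ly6Glow than in macrometastatic Ly6Ghigh (median -0.01). Fpr1, a formyl peptide receptor gene, rose by 0.84 on the log2 scale and was at 311 to 316 CPM in macrometastatic Ly6Ghigh and 549 to 574 CPM in Ly6Glow libraries. Cybb, encoding the large subunit of the phagocyte oxidase, gave -1.59, with 2059 to 2074 CPM and 673 to 699.7 CPM. Slpi, a protease inhibitor gene, gave 0.38 and was not called. Against normal lung 13 of the 15 were higher and 1 lower in macrometastatic Ly6Ghigh (median 1.39), and 13 higher and 2 lower in Ly6Glow (median 1.59). Under neutrophil marker scaling these counts were 5 and 2 (median 0.11) and 3 and 6 (median -0.18), and between gates 0 higher by edgeR and 6 lower (median -0.50). Ffar2, a short-chain fatty acid receptor gene, had the largest increase over normal lung in both groups (3.06 and 2.91). Slpi was higher in both (1.39 and 1.77, and 0.11 and -0.0013 under neutrophil marker scaling). Ptx3, encoding pentraxin 3, was lower in both at no more than 2.20 CPM in any library. Of all genes tested, neutrophil marker scaling called 1.41% higher and 42.4% lower between gates. Its shares were 2.55% and 77.2% between the Ly6Ghigh groups, and 1.11% and 88.1% in Ly6Glow over normal lung. The counts of each list under that scaling are read beside these shares.

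Of 9 primary granule genes tested, 6 were lower in Ly6Glow than in macrometastatic Ly6Ghigh and 0 higher by edgeR, with a median of -2.02. Ctsc (-0.28), Cd63 (-0.46) and Prss57 (-0.38) were not called. Ms4a3, a gene of granulocyte precursors, gave -4.00, with 12.2 to 13.5 CPM in macrometastatic Ly6Ghigh and 0.686 to 0.893 CPM in Ly6Glow libraries. Against normal lung 6 were higher and 1 lower in either macrometastatic group (medians 3.74 and 1.64), and under neutrophil marker scaling 6 higher and 3 lower in Ly6Ghigh and 1 higher and 3 lower in Ly6Glow. Prtn3, encoding proteinase 3, was at 35.5 to 37.0 CPM in macrometastatic Ly6Ghigh, 6.40 to 8.28 CPM in Ly6Glow and 0.593 to 0.898 CPM in normal lung, and Gusb, a lysosomal enzyme gene, was the one lower in both (-0.71 and -1.63). These levels are far below those of the secondary granule genes, the whole list summing to 512 to 519 CPM in macrometastatic Ly6Ghigh libraries.

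Among 7 tertiary granule genes, 2 were higher and 1 lower in Ly6Glow than in macrometastatic Ly6Ghigh (median 0.23). Slc11a1, a metal ion transporter gene of phagosomes, rose by 1.00 on the log2 scale. Fcnb, encoding ficolin B, gave -3.33, with 39.8 to 42.0 CPM in macrometastatic Ly6Ghigh and 3.51 to 4.55 CPM in Ly6Glow libraries. Against normal lung 4 were higher and 2 lower in macrometastatic Ly6Ghigh (median 1.56), and 4 higher and 1 lower in Ly6Glow (median 0.71), with Fcnb at 4.04 in the first and Mmp9, the gelatinase gene, at 1.87 in the second. Vnn1 was lower in both at no more than 0.988 CPM in any library. Under neutrophil marker scaling the counts were 0 higher by edgeR and 2 lower between gates. They were 1 and 3 in macrometastatic over normal Ly6Ghigh, and 0 and 4 in Ly6Glow over normal lung. Of all genes 42.4%, 77.2% and 88.1% were lower in the same order.

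Of 10 other antimicrobial protein genes tested, 6 were higher and 1 lower in Ly6Glow than in macrometastatic Ly6Ghigh (median 0.86). The direction of these 6 was opposite to that of the 6 members called, while S100a8 (-0.10) and S100a9 (-0.05) were not called. Nos2, the inducible nitric oxide synthase gene, was at 306 to 321 CPM in macrometastatic Ly6Ghigh, 774 to 809.8 CPM in Ly6Glow and 35.8 to 37.1 CPM in normal lung libraries, and had the largest increase over normal lung in both groups (3.10 and 4.44). Against normal lung 4 were higher and 5 lower in macrometastatic Ly6Ghigh (median -1.12) and the same numbers in Ly6Glow (median -0.51). Without Reg3g, whose Ly6Glow libraries held 1 to 2 counts against 0 in macrometastatic Ly6Ghigh, the medians of the other 9 were 0.81, -0.54 and -0.06 in the 3 comparisons. Pglyrp2, a relative of Pglyrp1, was lower in Ly6Glow at -0.83, at no more than 1.60 CPM in any library, and Reg3g was at 0 in every macrometastatic Ly6Ghigh library and at no more than 1.21 CPM elsewhere. Under neutrophil marker scaling 4 of the 10 were higher and 2 lower between gates (median 0.36). Over normal lung that scaling gave 3 higher and 6 lower in Ly6Ghigh (median -2.40) and 1 higher and 6 lower in Ly6Glow (median -2.28).

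Of 12 genes for granulocyte transcription factors, 8 were lower and 1 higher in Ly6Glow than in macrometastatic Ly6Ghigh (median -0.80). Cebpe had the largest fall at -2.56, with 46.8 to 48.5 CPM in macrometastatic Ly6Ghigh, 7.15 to 9.50 CPM in Ly6Glow and 3.42 to 4.60 CPM in normal lung libraries. Its log2 fold changes over normal lung were 3.52 in Ly6Ghigh and 0.96 in Ly6Glow, the latter turning to -0.81 under neutrophil marker scaling. Its order over the 3 groups was that of Ltf and Ngp. Cebpb was the one that rose between gates (0.89). Against normal lung 6 were higher and 3 lower in macrometastatic Ly6Ghigh (median 0.55), and 5 higher and 5 lower in Ly6Glow (median -0.15). Irf8, a factor of the monocyte lineage, was the lowest in both (-2.33 and -3.28), and Spi1, which encodes PU.1, and Cebpb had increases in Ly6Glow that differed by less than their SE (both 1.26, and both -0.51 under neutrophil marker scaling). With that scaling the counts over normal lung were 1 higher and 6 lower in Ly6Ghigh and 0 higher by edgeR and 10 lower in Ly6Glow. Of all genes 77.2% and 88.1% were lower in these comparisons under it.

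Of 11 close relatives of the 10 genes 5 were tested, of which 1 was higher and 1 lower between the gates, and 2 higher and 1 lower over normal lung in either macrometastatic group. Trf, encoding the iron carrier transferrin, rose by 0.89 on the log2 scale between gates, where its relative Ltf fell, with 649.8 to 677 CPM in macrometastatic Ly6Ghigh and 1217 to 1254 CPM in Ly6Glow libraries. Chil4 fell between the gates (-2.67) and was higher in macrometastatic Ly6Ghigh than in normal lung (1.77), and Olfm2 was lower in both macrometastatic groups at no more than 0.856 CPM. Under neutrophil marker scaling 0 of the 5 were higher by edgeR and 1 lower between gates, so that Trf was not called higher. Over normal lung that scaling gave 0 higher by edgeR and 4 lower in Ly6Ghigh, and 0 and 5 in Ly6Glow. Of all genes 77.2% and 88.1% were lower there.

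**Figure D4:**
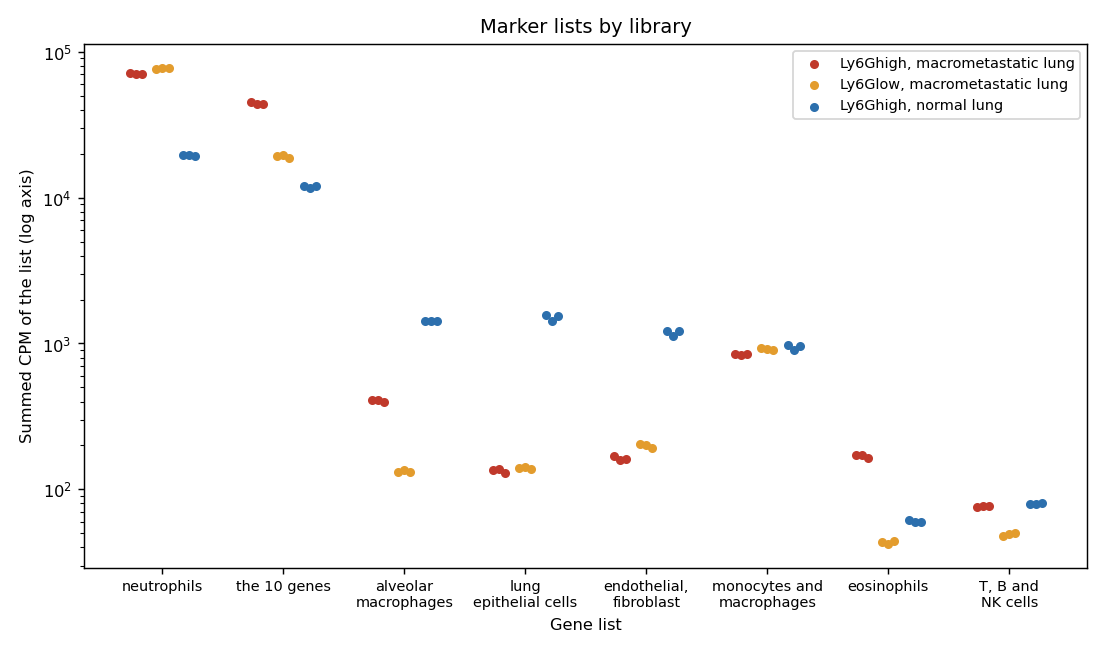
Summed TMM-scaled CPM of marker lists on a log axis, a point a library, with the sum of the 10 genes beside them. Neutrophil markers and the 10 genes are lowest in normal lung, where lung epithelial, endothelial and fibroblast, and alveolar macrophage markers are highest.

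The remaining marker lists were read in the same way. Neutrophil markers were higher in Ly6Glow than in macrometastatic Ly6Ghigh for 5 of 10 and lower for 0, and over normal lung 8 were higher in Ly6Ghigh and all 10 in Ly6Glow, with 0 lower by edgeR. Lung epithelial genes were lower than in normal lung for 14 of 14 in macrometastatic Ly6Ghigh and 13 of 14 in Ly6Glow, with 2 higher and 2 lower between gates. All 8 endothelial and fibroblast genes were lower than in normal lung in both, and 0 were called between gates. Of 12 monocyte and macrophage genes, 3 were lower in Ly6Glow than in macrometastatic Ly6Ghigh, and 2 were higher and 6 lower over normal lung in either group. Basophil and mast cell genes were lower in Ly6Glow between gates for 4 of 5 tested, summing to 28.6 to 30.6 CPM in macrometastatic Ly6Ghigh, 16.1 to 18.1 CPM in Ly6Glow and 3.60 to 3.86 CPM in normal lung libraries, and over normal lung 5 and 4 were higher. Eosinophil genes over normal lung were higher for 6 of 7 in macrometastatic Ly6Ghigh, and 3 higher and 1 lower in Ly6Glow. Of 9 T, B and NK cell genes tested, 6 were lower between gates, with 2 higher and 4 lower in macrometastatic Ly6Ghigh over normal lung and 1 higher and 5 lower in Ly6Glow. Both erythroid genes tested were lower in both macrometastatic groups than in normal lung and not called between gates. Each count of 0 in these lists was also 0 at an unadjusted p with the same fold threshold and under DESeq2, while limma on log2(FPKM + 1) called 1 neutrophil and 1 eosinophil gene lower in macrometastatic over normal Ly6Ghigh.

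Because neutrophil markers themselves were lower in normal lung, the 10 genes were also given per neutrophil marker transcript. With libraries scaled so that the geometric mean of the 10 neutrophil markers was equal, the median of all genes moved to -0.53, -1.36 and -1.93 in the 3 comparisons, and values are read beside those shifts. Between gates all 10 genes were then lower in Ly6Glow, from -3.05 for Camp to -0.32 for Hp, and 9 were called. In macrometastatic over normal Ly6Ghigh, Ltf (1.44), Ngp (1.35), Lcn2 (1.35), Pglyrp1 (1.27), Camp (1.04) and Hp (0.73) were higher, Olfm4 (0.50) was not called, and Chil3 (-0.88), Lyz2 (-1.31) and Lyz1 (-1.54) were lower. In Ly6Glow over normal lung the 6 lower were Chil3 (-3.57), Lyz1 (-3.24), Lyz2 (-3.01), Camp (-2.01), Ltf (-0.96) and Ngp (-0.69), of which the last pair lay above the median of all genes. S100a8, one of the 10 markers, differed from their mean by 1.12 in macrometastatic over normal Ly6Ghigh, so that this scaling depends on the markers taken. Some markers also stand in the lists above, Mmp9 among the tertiary and Itgam among the other secondary granule genes. S100a8 and S100a9 are among the other antimicrobial genes. The mean of the markers is held equal by construction, so that marker-scaled counts and medians of these lists are partly tied to the scaling. The medians of the granule lists moved likewise, that of the primary granule genes in Ly6Glow over normal lung to -0.13 and that of the tertiary granule genes to -0.26 between gates and -1.05 in Ly6Glow over normal lung. The median of the transcription factor genes in macrometastatic over normal Ly6Ghigh turned to -0.73.

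**Figure D5:**
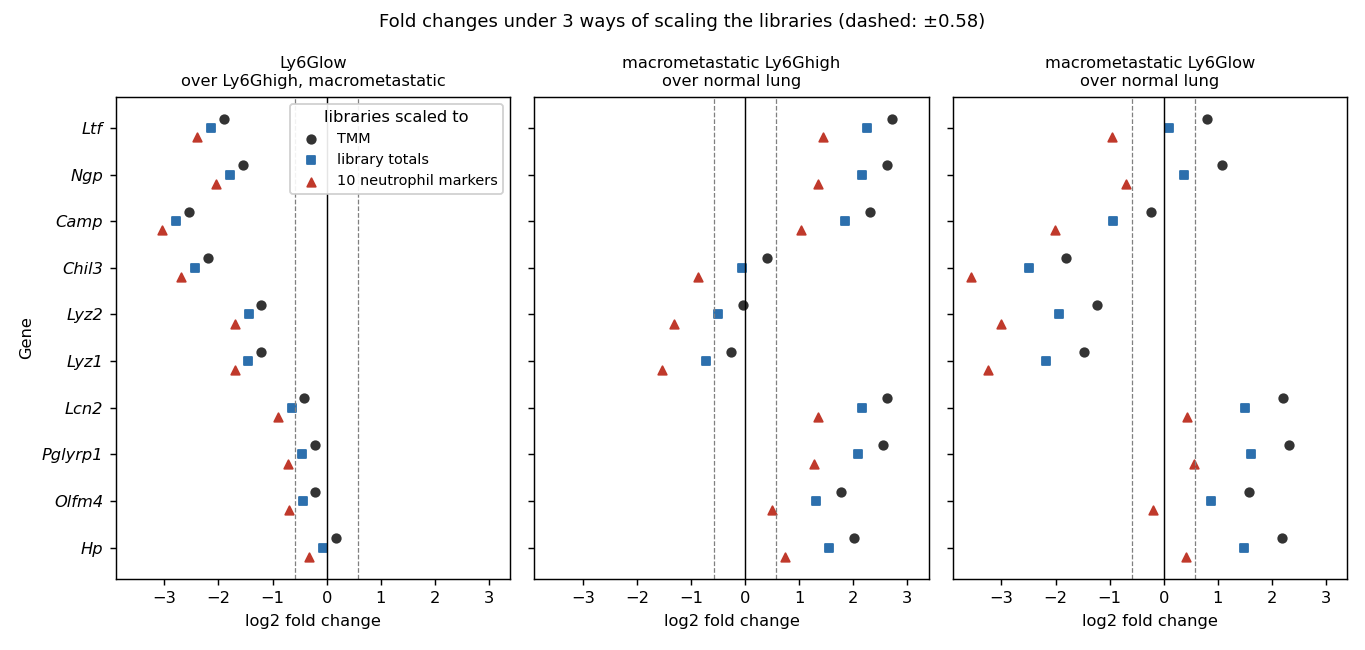
Log2 fold changes of the 10 genes with libraries scaled by TMM, by library totals or to the geometric mean of 10 neutrophil markers, 1 panel a comparison, with dashed lines at the threshold of 0.58. Ltf, Ngp and Camp are negative between gates and positive between the Ly6Ghigh groups under all 3, whereas Ltf, Ngp and Olfm4 in Ly6Glow over normal lung, Chil3 between the Ly6Ghigh groups and Hp between gates change sign.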

How the data were processed

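The 9 bulk RNA-seq libraries were made from poly(A) RNA with strand marking and sequenced in pairs by BGI, per the labels and the study's methods. The authors deposited an estimated count of reads for each gene and library, without normalization, and an FPKM value, scaled for transcript length and library total. The submitters' processing notes name the build mm10, and the aligner and counter are not given in the sources used here. Of 22064 genes listed, 3739 were blank and 18325 had values. Rounding preceded the tests, since 37.9% of the estimated counts were whole. The authors' own comparison, in the study's methods, used DESeq2.

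Counts were tested in R 4.3.3 with edgeR 4.0.16 (filterByExpr by group, TMM factors of 0.803 to 1.32, quasi-likelihood F test, group as the only term over all 9 libraries). Benjamini-Hochberg adjustment covered the 14108 tested genes. A call needed an adjusted p of 0.05 or less and a log2 fold change beyond 0.58 either way. The standard error is the fitted log2 fold change divided by the square root of F. At totals of 15267177 to 17841807 the biological coefficient of variation, the spread between libraries beyond counting error, was 0.0346. The scripts were tested on simulated data. Groups came from titles and treatment labels. Replicate numbers are not stated to pair libraries, and the fit paired none (correlations of deviations at the same number from -0.068 to 0.077).

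Every one of the 10 genes was reported. Of each pathway list the genes with the largest called increase and decrease per comparison were named, with Cebpe and Slpi in any case, and for 5 of the 10 genes the 3 nearest profiles. The 10 genes and all lists were chosen with earlier results of these data known. Cdc25a, Krt79, Ear1, Siglecf, Ctsc, Cd63, Prss57, Bpifa1, Bpifb1, S100a8 and S100a9 were named after their values were seen, by their place in a span or list. Positions and transcripts came from GENCODE and RefSeq on GRCm38.p6. Alternatives were DESeq2 1.42.0, its size factors, upper-quartile factors, other filters and thresholds, limma 3.58.1 on log2(FPKM + 1) or log2(FPKM + 0.1), a replicate block and leaving out each library. Scaling to library totals and to neutrophil markers was added after the data were seen.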

Additional observations from a re-analysis of the deposited data

How the results depend on the processing

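Of 720 alternative log2 fold changes of the 10 genes, 669 kept their direction and side of the threshold, 25 passed it newly, 13 lost it and 13 changed sign. All 30 values (10 genes in 3 comparisons) kept both under DESeq2 size factors, upper-quartile factors, DESeq2, an unadjusted p, a model of only the 6 libraries compared, and either no count filter or one of 10 counts per library. Leaving out each library in turn kept all 270 values, with counts of genes called unchanged at 0 higher and 6 lower between gates, 7 and 0 in macrometastatic over normal Ly6Ghigh, and 6 and 3 in Ly6Glow over normal lung. With a replicate block these counts were 0 and 6, 7 and 0, and 6 and 3, and no call changed. Libraries of the same number did not deviate together. With 3 libraries of small spread a group, this cannot tell whether the numbers pair libraries, and the sources used here do not say.

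Without a fold threshold 7 of the 30 values were newly called. Between gates 1 gene was then higher (Hp), and Lcn2, Olfm4 and Pglyrp1 were added to those lower. In macrometastatic over normal Ly6Ghigh 1 gene was lower (Lyz1) and Chil3 was added to those higher. Camp was added to those lower in Ly6Glow over normal lung. The scaling moved more. Under the 3 settings of limma on log2 FPKM, Hp between gates was -0.0665 and Chil3 between the Ly6Ghigh groups -0.0628, and under library totals -0.0654 and -0.0637. In these 4 settings 1 gene, Lyz1, was lower between the Ly6Ghigh groups. Under neutrophil marker scaling Hp was -0.32 and Chil3 -0.88, and Ltf (-0.96), Ngp (-0.69) and Olfm4 (-0.20) changed sign in Ly6Glow over normal lung, where 0 genes were higher and 6 lower, and 3 were lower between the Ly6Ghigh groups. By construction these scalings shift every gene of a comparison alike, and the median over all genes was -0.28, -0.55 and -0.86 under library totals. Over all genes tested, higher and lower calls were 1310 and 2250 between gates, 3712 and 5162 between the Ly6Ghigh groups and 4049 and 5760 in Ly6Glow over normal lung under TMM. Under library totals they were 570 and 3730, 1742 and 6847, and 1330 and 7996, and under neutrophil marker scaling 199 and 5982, 360 and 10896, and 157 and 12435. With limma on log2(FPKM + 1) they were 317 and 1926, 1436 and 5162, and 1128 and 6473, with a pseudocount of 0.1 they were 520 and 3606, 1826 and 7625, and 1401 and 8909, and with FPKM of at least 1 in 3 libraries 320 and 1903, 1426 and 4652, and 1120 and 5845. With no fold threshold they were 3686 and 4182, 5629 and 6301, and 5591 and 6655, and with a threshold of 1 they were 342 and 963, 1900 and 4112, and 2285 and 4800. Upper-quartile factors gave 2762 and 5755 between the Ly6Ghigh groups. The 3 libraries of a group, of unstated relation to single mice, limit every p-value.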
